A study of Homo sapiens with 12 samples.

Results

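The 36 nuclear genes described here encode proteins that copy, transcribe, process and degrade the nucleic acids of human mitochondria, together with 3 nuclear regulators of such genes. They were chosen by function, with earlier results of these data known, and matched by gene symbol, with no threshold on a measured value. All 36 were found among the 57500 genes in the count tables, and all 36 were among the 16402 genes with enough reads to be tested. RNA was measured by poly(A)-selected sequencing in THP-1, an established human monocytic leukaemia cell line. Every group consisted of cells transduced with lentiviral particles carrying a non-target shRNA, labelled shNT, so no untransduced cells enter these comparisons. Cells in buffered DMEM were held for 4 h at 5% CO2, or at 10% CO2 as buffered hypercapnia, in which CO2 is raised while the medium is buffered. In 2 of the 4 groups LPS, a bacterial cell wall lipid that activates monocytes, was present at 2.5 µg/ml for the last 2 h. Each group held 3 libraries. The labels do not say that these came from separate cultures, so the p-values measure only the spread between libraries, which may be technical.

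Mitochondrial DNA is a small circular genome held in protein-coated nucleoids. A single RNA polymerase, POLRMT, transcribes it with the DNA-bending protein TFAM and the initiation factor TFB2M, and both strands are read as long precursors. These are cut mostly at the tRNAs that separate the messages, then stabilised, polyadenylated and finally degraded by dedicated proteins, all of which are imported from the cytosol. The transcription factors NRF1 and GABPA and coactivators of the PGC-1 family, among them PPARGC1B, are known regulators of many of these nuclear genes.

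Promoters are shown for 4 members, because 2 of the listed regulators, NRF1 and GABPA, bind DNA at such sites. In the RefSeq promoter table (GRCh38.p14), 31 of the 36 members had an entry, and the 250 bases before each start site were searched on both strands. The letters GCATGCG, a core of the NRF1 site, occurred in 4 of the 31 members (12.9%) and in 4.16% of all 27305 genes in the table, which also holds noncoding genes. The letters CCGGAAG, a core of the ETS site that GABPA recognises, occurred in 11 of the 31 (35.5%) and in 10.2% of all genes. The letters AAGGTCA, an oestrogen-related receptor site, were found in 2 of the 31 (6.45%) and 4.21% of all genes. The interferon response core GAAANNGAA was found in 2 of the 31 (6.45%) and 8.41% of all genes. GCATGCG is nearly its own reverse complement, so that matches on the 2 strands overlap. The members with GCATGCG were POLRMT, TFB1M, TFB2M and MTPAP. The stretches below run 5′ to 3′ toward the start site on the minus strand, leave out any base that an exon of the count tables covers, and carry matches to either motif in capitals. POLRMT, TFB1M and MTPAP are shown for their NRF1-type letters and POLG2 for its ETS-type letters. A match is a description of the letters and shows no binding.
POLRMT, chr19:633605-633787: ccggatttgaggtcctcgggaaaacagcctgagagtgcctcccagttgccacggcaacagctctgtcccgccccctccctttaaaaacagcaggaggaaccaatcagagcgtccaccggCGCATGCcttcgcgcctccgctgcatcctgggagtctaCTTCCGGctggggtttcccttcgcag
TFB1M, chr6:155314494-155314734: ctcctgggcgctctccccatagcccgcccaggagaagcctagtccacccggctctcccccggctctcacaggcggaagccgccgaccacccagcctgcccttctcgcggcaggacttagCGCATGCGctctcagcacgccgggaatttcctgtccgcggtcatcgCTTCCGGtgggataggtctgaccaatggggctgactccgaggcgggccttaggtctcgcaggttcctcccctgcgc
MTPAP, chr10:30349320-30349528: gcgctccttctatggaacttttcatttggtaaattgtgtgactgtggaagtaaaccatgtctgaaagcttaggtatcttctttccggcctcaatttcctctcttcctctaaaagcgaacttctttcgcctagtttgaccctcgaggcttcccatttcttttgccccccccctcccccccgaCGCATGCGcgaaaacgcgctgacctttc
POLG2, chr17:64497055-64497304: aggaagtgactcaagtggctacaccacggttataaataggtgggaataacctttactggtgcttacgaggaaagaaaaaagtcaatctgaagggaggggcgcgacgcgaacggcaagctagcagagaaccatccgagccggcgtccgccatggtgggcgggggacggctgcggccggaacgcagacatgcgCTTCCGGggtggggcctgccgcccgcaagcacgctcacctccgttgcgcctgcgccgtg

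The libraries held 17.1 to 22.2 M counts each, and the lowest count of any member in any library was 28, for MTERF2. The 10 monocyte lineage markers had a summed level of 642 to 830 CPM (counts-per-million after TMM normalisation), and none was at 0 in every library of a group. For T, B, erythroid, epithelial, fibroblast and endothelial cells, each marker list taken alone summed to at most 4.21 CPM in any library, a value reached by the B cell list. TNF and IL1B, used to check the LPS label, were higher with LPS by 5.23 and 7.62 on the log2 scale at 5% CO2 and by 6.05 and 7.85 at 10% CO2. The 36 members together took 0.187% ± 0.00444 of counts at 5% CO2, 0.205% ± 0.00404 at 10% CO2, 0.168% ± 0.00582 at 5% CO2 with LPS and 0.183% ± 0.00215 at 10% CO2 with LPS (SD, n = 3).

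Per unit of annotated exon length, the members differed widely in level. Levels are given as RPKM, counts per kilobase of exon per M counts, averaged over the 12 libraries. The exon length covers all annotated exons of a gene and can exceed the length of its transcripts. The highest were HSD17B10, a subunit of the mitochondrial RNase P that cuts tRNA leading ends, at 43.9 RPKM, and LRPPRC, which stabilises mitochondrial mRNAs, at 38.1 RPKM. The lowest was PRORP, the catalytic subunit of that same RNase P, at 0.638 RPKM. Subunits of that enzyme differed in level, and the RPKM of TRMT10C, the methyltransferase subunit, was 27.9 ± 0.0680 times that of PRORP at 5% CO2, 34.1 ± 15.1 at 10% CO2, 28.2 ± 4.74 at 5% CO2 with LPS and 30.4 ± 4.22 at 10% CO2 with LPS (SD, n = 3). At 10% CO2 the 3 libraries ran from 21.2 to 50.6, so the ratio was not steady between libraries. The ratio also depends on the exon length, which was 1888 bases for TRMT10C and 6982 for PRORP. Without division by length their mean levels were 35.0 and 4.46 CPM. PRORP shares 40.9% of its exon bases with another annotated gene on the same strand, ENSG00000258790, and how reads in shared exons were counted is not given in the sources used here.

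Within the replication group the highest was TOP1MT, the mitochondrial topoisomerase, at 19.6 RPKM, and the lowest POLG2, the accessory subunit of the mitochondrial DNA polymerase, at 3.62. Among the transcription genes TFB2M led at 23.3 RPKM, followed by POLRMT at 14.4, and MTERF2, a mitochondrial DNA-binding protein, was lowest at 0.948. Of the RNA stability genes LRPPRC was highest and PTCD2, a pentatricopeptide repeat protein of cytochrome b mRNA maturation, lowest at 0.778 RPKM. In the decay pair PNPT1, the exoribonuclease PNPase, stood at 18.5 RPKM and its helicase partner SUPV3L1 at 8.64. Among the regulators GABPA reached 10.7 RPKM, NRF1 6.14 and PPARGC1B 1.09. The plot of levels by role shows that most genes held 1 narrow place across the 4 groups. POLG2, MTERF2, FASTKD3, PTCD1, PTCD2 and PPARGC1B had their LPS groups to the left of both others. TWNK, MGME1, POLRMT, MTERF1, ELAC2 and NRF1 had the same order with smaller shifts.

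**Figure D1:**
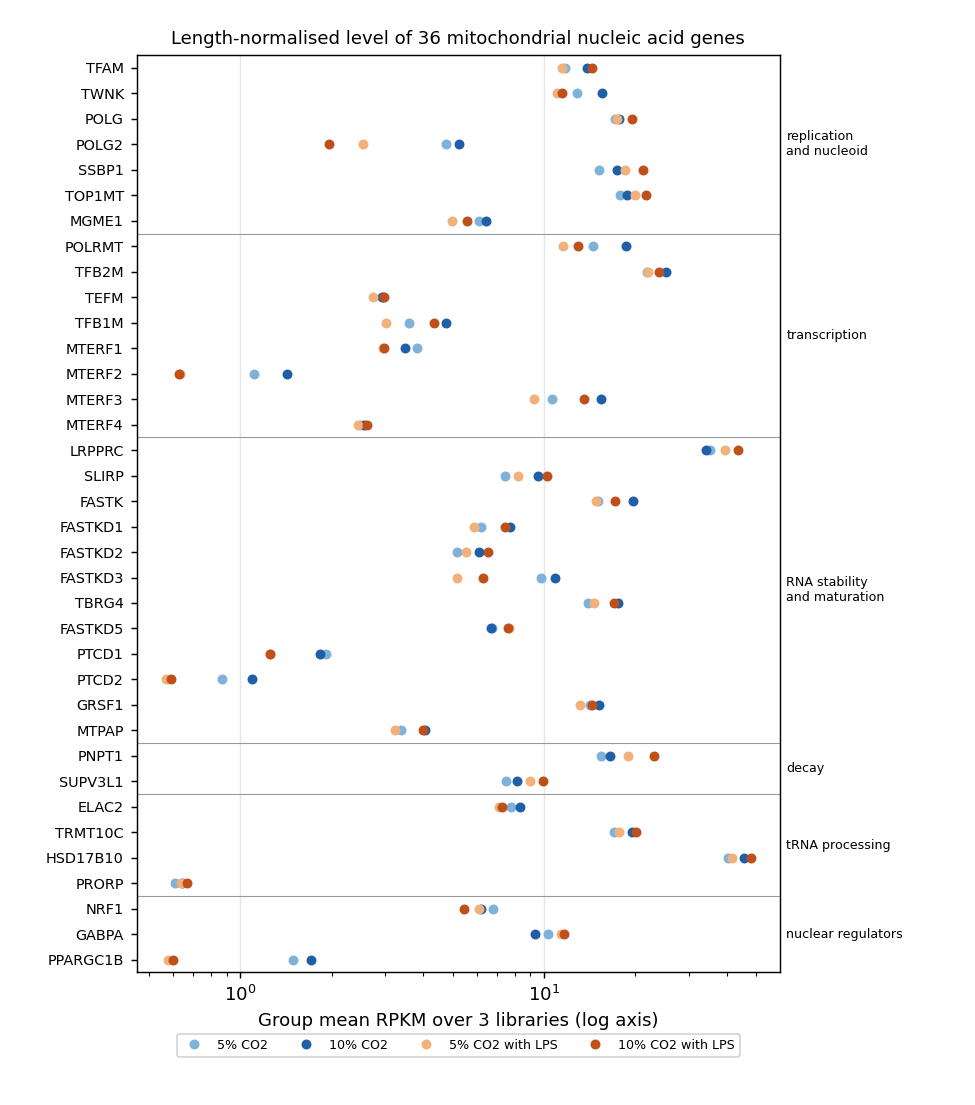
Mean RPKM (log axis) of the 36 genes in each group, n = 3 libraries per point, arranged by role. HSD17B10 and LRPPRC sit highest, and PRORP, PTCD2 and MTERF2 sit lowest. The LPS points of POLG2, MTERF2, FASTKD3, PTCD1, PTCD2 and PPARGC1B lie left of the points without LPS. Those of TWNK, MGME1, POLRMT, MTERF1, ELAC2 and NRF1 do so by less.

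At 10% CO2, 11 of the 36 members were called higher than at 5% CO2 and 0 lower, when the CO2 effect was averaged over both LPS states. These 11 were TFAM, SSBP1, POLRMT, TFB1M, MTERF3, SLIRP, FASTK, FASTKD1, TBRG4, MTPAP and PNPT1, and their log2 fold changes lay between 0.19 and 0.54. Called means an adjusted p under 0.05 in edgeR's quasi-likelihood test, with the Benjamini-Hochberg method applied across the whole table. The 11 are 30.6% of the members, beside 8.06% of all genes tested called higher and 8.69% called lower in the same contrast. The fold change was positive for 30 of 36 members, with a median of 0.17 on the log2 scale, against −0.01 over all genes tested. In bulk RNA a change in how many cells carry a message and a change in RNA per cell cannot be told apart.

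In the comparisons within 1 LPS state fewer members passed. Without LPS 1 member (2.78%), MTERF3, was called higher and 0 lower, where 0.799% of all genes were called higher and 0.665% lower. With LPS 4 members (11.1%) were called higher, TFAM, TFB1M, MTERF3 and PNPT1, and 0 lower. Of all genes, 4.29% were called higher there and 4.46% lower. All 3 libraries at 10% CO2 lay above all 3 at 5% CO2 for 11 of 36 members without LPS and for 14 of 36 with LPS. The share of all genes was 10.5% and 16.2%. The reverse held for 1 of 36 members without LPS and 2 of 36 with LPS, beside 10.2% and 15.2% of all genes. SSBP1, POLRMT, MTERF3, FASTKD1 and TBRG4 (13.9% of the members) lay apart and higher at 10% CO2 in both LPS states, beside 4.96% of all genes. NRF1 (2.78%) lay apart and lower in both, beside 4.45% of all genes.

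**Figure D2:**
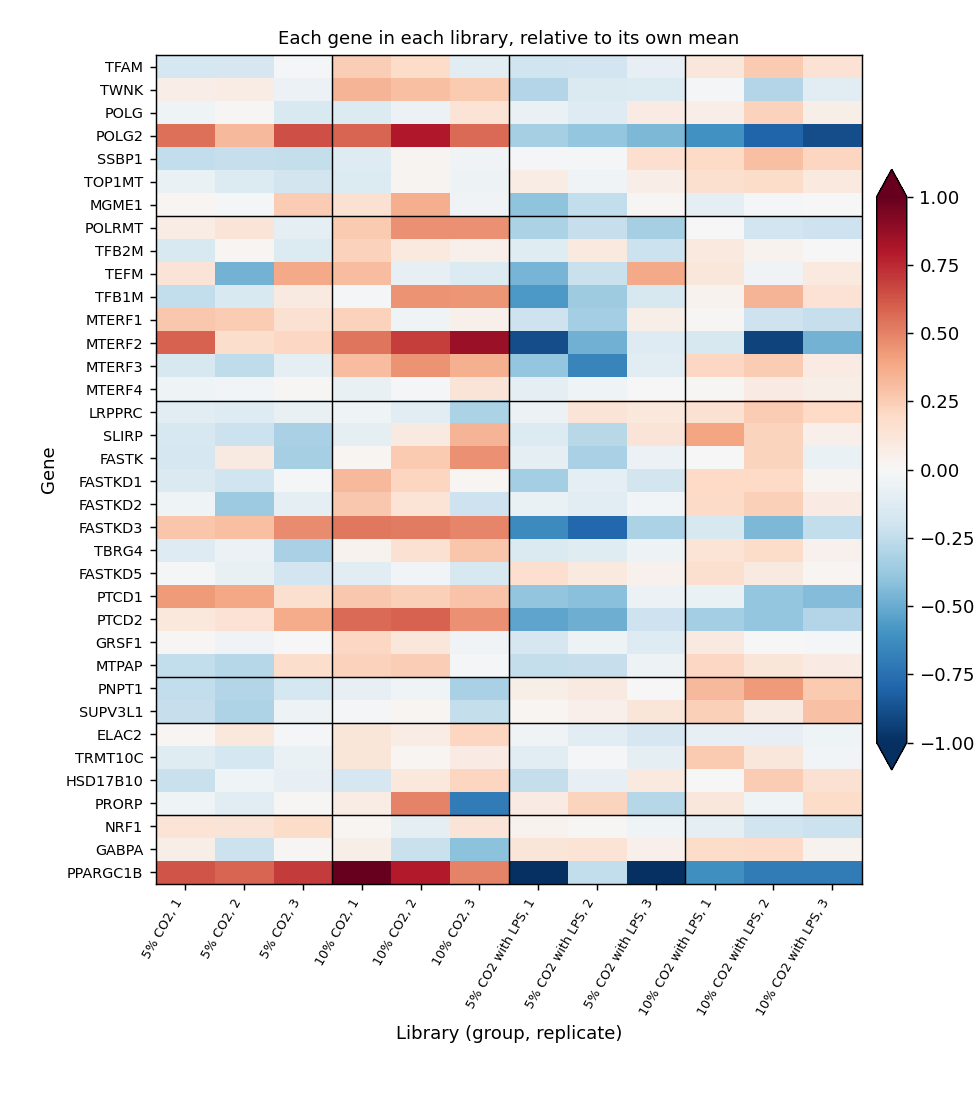
Heat map of log2 CPM minus the mean of that gene over 12 libraries, with genes as rows by role and libraries as columns by group, where red is above and blue below the mean. The LPS libraries of POLG2, MTERF2, FASTKD3 and PPARGC1B are blue, and TFAM, TFB1M, MTERF3 and FASTKD1 are mostly red at 10% CO2 in both LPS states.

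In the replication and nucleoid group, 2 of 7 members were called for CO2 averaged over LPS. TFAM (chr10:58385022-58399221), which coats mitochondrial DNA and activates its transcription, stood at 63.4, 63.6 and 70.5 CPM at 5% CO2 and 84.9, 81.5 and 66.2 CPM at 10% CO2. With LPS it stood at 62.4, 62.6 and 67.5 CPM at 5% and 77.3, 85.98 and 79.3 CPM at 10% CO2. The groups overlapped without LPS, where the third library at 10% CO2 was low, and did not overlap with LPS. The log2 fold change of TFAM was 0.33 ± 0.10 (SE; adjusted p = 0.0397) with LPS and 0.28 ± 0.07 (SE; adjusted p = 0.00939) averaged, and without LPS it was 0.24 ± 0.10 (SE; adjusted p = 0.215), which was not called. SSBP1, the single-stranded DNA-binding protein of the replication fork, gave 75.4, 76.1 and 75.8 CPM at 5% and 81.6, 91.3 and 87.2 at 10% CO2, and with LPS 88.2, 88.1 and 101 at 5% and 103, 110.4 and 104 at 10% CO2. Its groups did not overlap in either state, and its averaged difference was 0.20 ± 0.06 (SE; adjusted p = 0.0266). The polymerase subunit POLG, the helicase TWNK, TOP1MT and the exonuclease MGME1 had positive averaged values between 0.09 and 0.17 on the log2 scale that were not called, and POLG2 had −0.12.

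Of the 8 transcription genes, 3 were called for CO2. MTERF3, which restrains mitochondrial transcription initiation and takes part in ribosome assembly, had the largest CO2 effect among the members. Its CPM was 19.2, 18.03 and 20.2 at 5% CO2 and 26.6, 29.3 and 27.6 at 10% CO2, and with LPS 16.4, 13.6 and 20.02 at 5% and 24.8, 25.6 and 22.8 at 10% CO2. Every library at 10% CO2 lay above every library at 5% CO2. The fold change was 0.54 ± 0.12 (SE; adjusted p = 0.034) without LPS, 0.55 ± 0.12 (SE; adjusted p = 0.0116) with LPS and 0.54 ± 0.09 (SE; adjusted p = 0.000585) averaged. TFB1M, the methyltransferase of the small mitochondrial rRNA (chr6:155257509-155314493), had 8.86, 9.48 and 11.2 CPM at 5% and 10.4, 14.4 and 14.3 at 10% CO2, and with LPS 7.07, 8.22 and 9.44 at 5% and 10.8, 13.3 and 11.6 at 10% CO2. Its first library at 10% CO2 fell within the 5% CO2 range, while the LPS groups did not overlap. TFB1M differed by 0.53 ± 0.16 (SE; adjusted p = 0.0435) with LPS and by 0.47 ± 0.11 (SE; adjusted p = 0.00836) averaged, and 0.40 ± 0.15 (SE; adjusted p = 0.179) without LPS was not called. Reads of TIAM2, on the opposite strand, could fall in 7.86% of its exon bases.

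POLRMT (chr19:617224-633604), the RNA polymerase itself, stood at 76.2, 79.3 and 67.9 CPM at 5% CO2 and 86.95, 99.7 and 99.8 at 10% CO2. With LPS the values were 58.3, 61.8 and 57.5 at 5% and 72.3, 63.7 and 62.99 at 10% CO2, so the groups did not overlap in either state. Its difference was 0.36 ± 0.09 (SE; adjusted p = 0.0541) without LPS and 0.16 ± 0.09 (SE; adjusted p = 0.284) with LPS, neither called, and 0.26 ± 0.06 (SE; adjusted p = 0.011) averaged, which was called. The initiation factor TFB2M, the elongation factor TEFM and MTERF1, MTERF2 and MTERF4 were not called for CO2 in any comparison, with averaged values from −0.06 to 0.17. The interval for TEFM, −0.27 to 0.37, was wide.

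RNA stability and maturation genes made up 5 of the 11 members called for averaged CO2, of 12 in the group, and none of them passed in a single LPS state. SLIRP, the binding partner of LRPPRC, had 20.7, 19.8 and 18.4 CPM at 5% and 21.5, 24.5 and 29.1 at 10% CO2, and with LPS 20.9, 18.97 and 25.1 at 5% and 30.3, 26.9 and 23.9 at 10% CO2, where the groups overlapped. Its averaged difference was 0.33 ± 0.09 (SE; adjusted p = 0.0189), while LRPPRC itself had 0.05 ± 0.06 (SE; adjusted p = 0.608). C14orf178 on the same strand shares 10.45% of the exon bases of SLIRP, and SNW1 on the opposite strand 4.485%. The FASTK family, RNA-binding proteins each tied to particular mitochondrial messages, was split. FASTK had 55.7, 66.7 and 49.7 CPM at 5% and 63.4, 75.1 and 85.97 at 10% CO2, and 58.7, 50.03 and 60.3 at 5% and 62.9, 73.1 and 60.03 at 10% CO2 with LPS, with overlap in both states and an averaged difference of 0.30 ± 0.09 (SE; adjusted p = 0.0269).

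FASTKD1 had 27.2, 26.1 and 29.6 CPM at 5% and 37.5, 34.8 and 30.5 at 10% CO2, and 23.7, 28.2 and 26.5 at 5% and 34.5, 34.5 and 30.5 at 10% CO2 with LPS, with no overlap. TBRG4, also known as FASTKD4, had 83.4, 87.6 and 72.7 CPM at 5% and 93.2, 101 and 110.2 at 10% CO2, and 82.5, 83.6 and 87.95 at 5% and 99.9, 103 and 93.8 at 10% CO2 with LPS, likewise without overlap. Their averaged differences were 0.33 ± 0.07 (SE; adjusted p = 0.00675) and 0.27 ± 0.06 (SE; adjusted p = 0.0074). FASTKD5, which serves message ends that no tRNA marks, gave −0.01 ± 0.07 (SE; adjusted p = 0.932), and FASTKD2 and FASTKD3 gave 0.24 and 0.22 on the log2 scale, not called. MTPAP, the mitochondrial poly(A) polymerase, had 25.7, 25.03 and 34.4 CPM at 5% and 35.8, 36.04 and 30.2 at 10% CO2, and 25.8, 25.9 and 29.4 at 5% and 35.2, 33.2 and 32.3 at 10% CO2 with LPS. Its groups overlapped without LPS only, and it rose by 0.29 ± 0.08 (SE; adjusted p = 0.0272) averaged. MTPAP shares 19.4% of its exon bases with GOLGA2P6 on the same strand. PTCD1, PTCD2 and GRSF1, an RNA granule protein, were not called, with averaged values of −0.03, 0.19 and 0.12.

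In the decay pair PNPT1 was called for CO2 with LPS, at 0.29 ± 0.09 (SE; adjusted p = 0.046), and averaged, at 0.19 ± 0.06 (SE; adjusted p = 0.0398). Its CPM was 78.9, 76.2 and 82.7 at 5% and 88.3, 91.0 and 74.9 at 10% CO2, with overlap, and 97.4, 99.7 and 93.8 at 5% and 117, 126 and 112 at 10% CO2 with LPS, without overlap. SUPV3L1 gave 0.13 ± 0.07 (SE; adjusted p = 0.217) averaged and was not called. None of the 4 tRNA processing genes was called, although all 4 had positive averaged values, from 0.07 for PRORP and ELAC2, which cuts tRNA trailing ends, to 0.19 for HSD17B10 and TRMT10C. Of the regulators NRF1 stood at 27.8, 27.6 and 28.6 CPM at 5% and 25.6, 23.8 and 27.6 at 10% CO2, and 25.8, 25.5 and 24.4 at 5% and 23.7, 21.9 and 21.8 at 10% CO2 with LPS. NRF1 was thus lower in every library at 10% CO2 within each LPS state, but at −0.15 ± 0.07 (SE; adjusted p = 0.133) averaged it was not called, and GABPA and PPARGC1B were not called either.

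**Figure D3:**
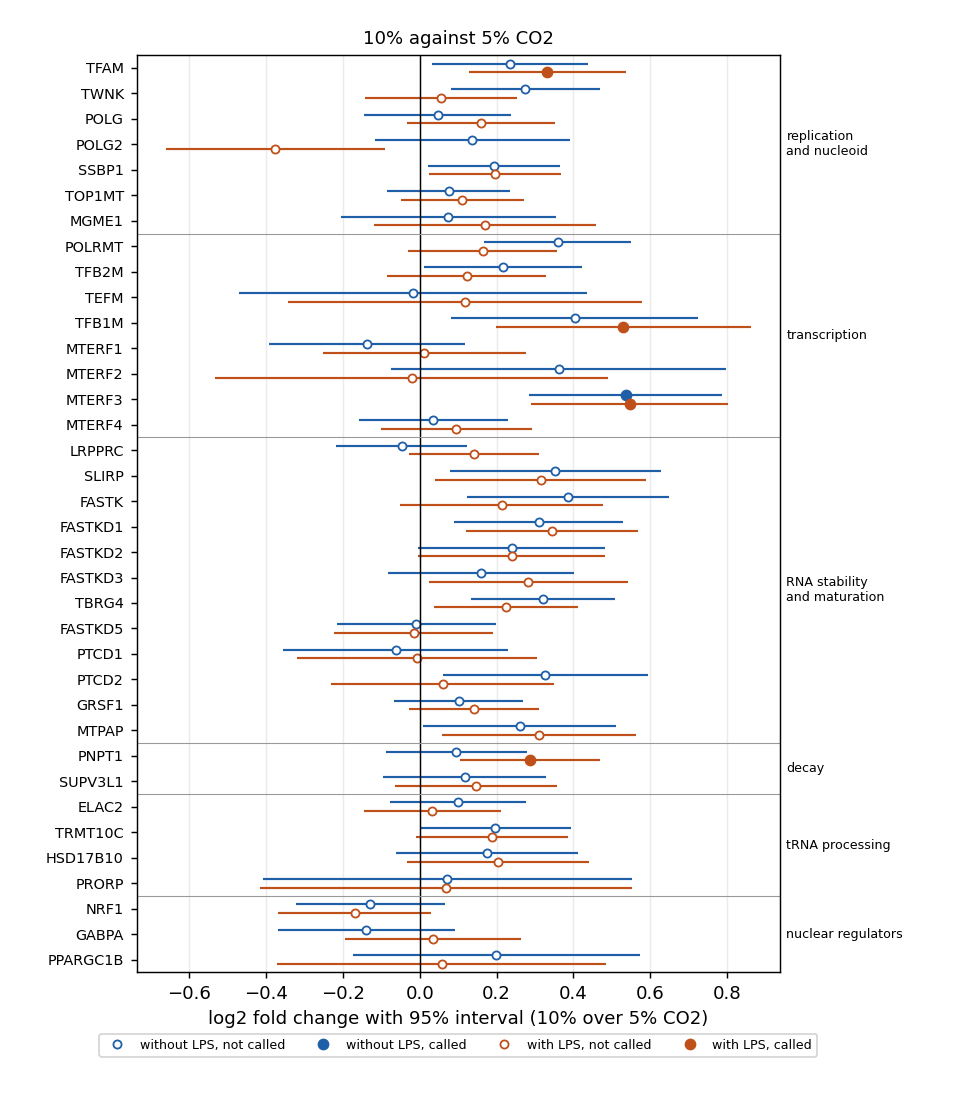
Log2 fold change of 10% over 5% CO2 for the 36 genes, with 95% intervals, without LPS (blue) and with LPS (orange); filled points are called and genes are arranged by role. Most points lie right of 0, the called ones are MTERF3 in both states and TFAM, TFB1M and PNPT1 with LPS, and POLG2 with LPS lies farthest left.

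The calls within 1 LPS state changed when single libraries were left out. Without LPS the count of called members was 0 when any of the 3 libraries at 5% CO2 or the second at 10% CO2 was left out (MTERF3 adjusted p 0.133, 0.107, 0.0589 and 0.200), and 4 without the first library at 10% CO2. With LPS it was 0 without the first or second library at 5% CO2 with LPS or the second at 10% CO2 with LPS, 1 without the third at 10% CO2 with LPS or the second at 10% CO2, and 2 without the first at 10% CO2 with LPS. After a correction for GC content between libraries, 6 members were called higher without LPS, which were MTERF3, POLRMT, TWNK, FASTK, FASTKD1 and TBRG4. With LPS it called 6 higher, MTERF3, POLRMT, POLG, TOP1MT, FASTK and TBRG4, and 1 lower, POLG2. For averaged CO2 it added POLG, TOP1MT, TWNK and HSD17B10 and lost SSBP1 and PNPT1. The corrected values of TFAM, TFB1M and PNPT1 with LPS were 0.20, 0.45 and 0.17, and none was called. The averaged count was 7 without the first library at 5% CO2 or the second at 10% CO2. No share of all genes called under these alternatives is given beside the counts. TFAM, POLRMT, TFB1M, MTERF3, FASTKD1 and TBRG4 were called for averaged CO2 in all 18 alternative settings, PNPT1 in 8, SSBP1 in 10, FASTK and MTPAP in 12 and SLIRP in 17.

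With LPS the largest changes among the members were falls, led by PPARGC1B, POLG2, MTERF2, FASTKD3 and PTCD2. At 5% CO2, 2 members were called higher and 8 lower, beside 11.8% and 13.1% of all genes tested. At 10% CO2, 6 were called higher and 8 lower, beside 16.6% and 18.6% of all genes. These counts are 5.56% and 22.2% of the members at 5% CO2 and 16.7% and 22.2% at 10% CO2, so the share higher at 10% CO2 was close to that of all genes. POLG2, SSBP1, POLRMT, MTERF2, FASTKD3, PTCD1, PTCD2, PNPT1 and PPARGC1B were called at both CO2 levels, 2 of them higher (5.56% of the members) and 7 lower (19.4%), beside 10.6% and 10.9% of all genes. The median over the 36 was −0.05 at 5% CO2 and −0.04 at 10% CO2 on the log2 scale, near the −0.01 and −0.02 of all genes. After the GC correction the split was 4 higher and 9 lower at 5% CO2 and 4 higher and 12 lower at 10% CO2. The share of all genes called with that correction is not given beside it.

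The largest fall was that of PPARGC1B (chr5:149730298-149855022), the coactivator PGC-1 beta. It stood at 19.1, 18.5 and 19.96 CPM at 5% CO2 and 27.3, 21.3 and 17.4 at 10% CO2, and at 6.18, 10.4 and 5.76 at 5% and 8.04, 7.59 and 7.59 at 10% CO2 with LPS. All 6 LPS libraries lay below all 6 others, and the second library at 5% CO2 with LPS was the highest among them. The log2 fold change was −1.37 ± 0.19 (SE; adjusted p = 3.39e-05) at 5% CO2 and −1.51 ± 0.19 (SE; adjusted p = 7.23e-06) at 10% CO2. GABPA was called higher at 10% CO2 by 0.32 ± 0.11 (SE; adjusted p = 0.029), with 59.8, 49.2 and 43.3 CPM without and 65.3, 65.9 and 58.9 with LPS, groups that overlapped. Its value after GC correction was 0.14 (adjusted p 0.156), and the call was lost without the second or the third library at 10% CO2 or the first or second at 10% CO2 with LPS (adjusted p 0.0784 to 0.146). ATP5PF on the opposite strand covers 7.61% of the exon bases of GABPA. NRF1 gave −0.15 and −0.19 at the 2 CO2 levels, not called, and −0.23 at 10% CO2 after the GC correction, which was called (adjusted p 0.0378).

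In the replication group POLG2 (chr17:64477785-64497036) fell most. Its CPM was 16.5, 14.1 and 17.6 at 5% and 16.9, 19.6 and 16.7 at 10% CO2, and with LPS 8.94, 8.63 and 8.26 at 5% and 7.39, 6.46 and 6.11 at 10% CO2. No LPS library reached the lowest library without LPS. The log2 fold change was −0.90 ± 0.13 (SE; adjusted p = 2.41e-05) at 5% CO2 and −1.41 ± 0.13 (SE; adjusted p = 7.54e-08) at 10% CO2. POLG, which encodes the catalytic subunit of the same polymerase, gave 0.02 and 0.14 on the log2 scale and was not called, but after the GC correction its value at 10% CO2 was 0.29 and called (adjusted p 0.00356). The RPKM ratio of POLG to POLG2 was 3.66 ± 0.624 at 5% CO2, 3.41 ± 0.528 at 10% CO2, 6.88 ± 0.762 at 5% CO2 with LPS and 10.0 ± 1.26 at 10% CO2 with LPS (SD, n = 3). The ratio was therefore higher in every LPS library than in any other.

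TWNK, the replicative helicase, had 56.1, 54.4 and 53.03 CPM at 10% CO2 and 43.7, 36.1 and 41.1 at 10% CO2 with LPS, with no overlap, and fell by 0.44 ± 0.09 (SE; adjusted p = 0.00115). At 5% CO2 it had 46.3, 46.4 and 42.5 without and 36.2, 39.9 and 40.2 with LPS, also without overlap, and its value of −0.22 was not called. SSBP1 rose at both levels, by 0.28 ± 0.08 (SE; adjusted p = 0.0148) at 5% and 0.29 ± 0.08 (SE; adjusted p = 0.00996) at 10% CO2, and its libraries are given above. SSBP1 was not called at 10% CO2 after the GC correction (0.18) or without the filter on low counts (0.26), nor at 5% CO2 without the third library at 5% CO2 with LPS (adjusted p 0.0995). TOP1MT had 115, 128 and 121 CPM at 10% CO2 and 140.2, 143 and 135 with LPS, with no overlap, a difference of 0.20 ± 0.08 (SE; adjusted p = 0.0467). That call held in 7 of 19 alternatives, and the value was 0.36 after the GC correction, under which TOP1MT was also called at 5% CO2 (0.23). TFAM and MGME1 were not called for LPS, and MGME1 was called lower at 5% CO2 after the GC correction (−0.34, adjusted p 0.0455).

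Of the transcription genes POLRMT and MTERF2 fell with LPS at both CO2 levels and MTERF1 at 5% CO2. POLRMT fell by 0.33 ± 0.09 (SE; adjusted p = 0.0119) at 5% CO2 and 0.53 ± 0.09 (SE; adjusted p = 0.000167) at 10% CO2, and its LPS libraries did not overlap the others at the same CO2 level. The value at 10% CO2 was −0.29 after the GC correction and still called, and the call at 5% CO2 was lost without the second library at 5% CO2 (adjusted p 0.0593). MTERF2 was the scarcest of them, with 4.79, 3.58 and 3.67 CPM at 5% and 4.60, 5.12 and 5.78 at 10% CO2, and 1.71, 2.27 and 2.90 at 5% and 2.84, 1.67 and 2.29 at 10% CO2 with LPS. All 6 LPS libraries lay below all others, and the log2 fold change was −0.80 ± 0.23 (SE; adjusted p = 0.013) at 5% and −1.19 ± 0.22 (SE; adjusted p = 0.000381) at 10% CO2. The call at 5% CO2 was lost without the first library at 5% CO2 (adjusted p 0.0745) or the first with LPS (0.0726), and TMEM263 on the opposite strand covers 11.6% of the exon bases.

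MTERF1, the terminator that binds at the end of the rRNA genes, had 19.3, 19.02 and 17.8 CPM at 5% CO2 and 13.8, 12.6 and 16.7 at 5% CO2 with LPS. The groups did not overlap, and the difference was −0.38 ± 0.12 (SE; adjusted p = 0.0302). It was not called without either of the first 2 libraries of either group (adjusted p 0.0753 to 0.160). At 10% CO2 it had 18.8, 15.6 and 16.6 CPM without and 16.1, 13.9 and 13.6 with LPS, and its value of −0.23 was not called, while after the GC correction it was −0.40 and called (adjusted p 0.0159). TFB1M, TFB2M, TEFM, MTERF3 and MTERF4 were not called for LPS at either CO2 level, and MTERF3 was called at 10% CO2 after the GC correction (−0.30, adjusted p 0.0499).

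In the RNA stability group FASTKD3, PTCD1 and PTCD2 fell at both CO2 levels. FASTKD3 (chr5:7859159-7869037), a family member tied to respiratory chain messages, had 26.4, 26.8 and 30.3 CPM at 5% and 31.5, 31.2 and 30.6 at 10% CO2, and 14.03, 12.7 and 17.5 at 5% and 19.5, 15.96 and 18.3 at 10% CO2 with LPS. All LPS libraries lay below all others, with falls of 0.92 ± 0.12 (SE; adjusted p = 1.04e-05) and 0.79 ± 0.12 (SE; adjusted p = 3.29e-05) at 5% and 10% CO2. MTRR, read from the opposite strand, overlaps 3.50% of its exon bases. FASTKD3 was the 1 member of its family called for LPS: FASTK, FASTKD1, FASTKD2, TBRG4 and FASTKD5 lay between −0.20 and 0.19 at both levels.

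PTCD2 had 9.76, 10.03 and 11.7 CPM at 5% and 13.4, 13.6 and 12.5 at 10% CO2, and 6.29, 6.46 and 7.87 at 5% and 7.15, 6.94 and 7.40 at 10% CO2 with LPS. Its LPS libraries lay below all others, with −0.61 ± 0.13 (SE; adjusted p = 0.002) and −0.88 ± 0.13 (SE; adjusted p = 3.55e-05). PTCD1, a pentatricopeptide repeat protein of mitochondrial tRNA and rRNA metabolism, had 11.8, 11.5 and 9.89 CPM at 5% and 10.7, 10.4 and 10.8 at 10% CO2, and 6.70, 6.62 and 8.46 at 5% and 8.46, 6.76 and 6.54 at 10% CO2 with LPS, with −0.61 ± 0.14 (SE; adjusted p = 0.00377) and −0.55 ± 0.14 (SE; adjusted p = 0.00569). PTCD1 shares 41.0% of its exon bases with the read-through gene ATP5MF-PTCD1 on its own strand and 15.8% with BUD31 on the other, so the source of its reads is uncertain. LRPPRC (chr2:43886508-43996005) moved the other way, with 359, 343 and 297 CPM at 10% CO2 and 410.4, 441 and 425 with LPS, no overlap and a rise of 0.35 ± 0.08 (SE; adjusted p = 0.00204). At 5% CO2 it had 343, 338 and 350.3 CPM without and 355, 404 and 398 with LPS, also without overlap, and its value of 0.16 was not called. SLIRP, GRSF1 and MTPAP were not called, and GRSF1 was called lower at 10% CO2 after the GC correction (−0.16, adjusted p 0.0486).

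The decay genes were called higher with LPS, PNPT1 at both CO2 levels and SUPV3L1 at 10% CO2. PNPT1 (chr2:55634265-55693910), whose libraries are given above, rose by 0.29 ± 0.09 (SE; adjusted p = 0.0188) at 5% CO2 and 0.48 ± 0.09 (SE; adjusted p = 0.000243) at 10% CO2. Its LPS libraries lay above the others at both levels. The call at 5% CO2 was lost without the first or second library at 5% CO2 or the first with LPS (adjusted p 0.0514 to 0.0733). SUPV3L1 had 31.4, 29.7 and 35.4 CPM at 5% and 36.4, 37.2 and 31.2 at 10% CO2, and 37.3, 38.1 and 39.99 at 5% and 43.3, 39.2 and 45.05 at 10% CO2 with LPS, with no overlap at either level. It was called at 10% CO2, at 0.29 ± 0.10 (SE; adjusted p = 0.0336), and not at 5% CO2, at 0.26 ± 0.10 (SE; adjusted p = 0.0718), where the GC correction (0.24) and DESeq2 (0.27) called it. Its call was lost without the third library at 10% CO2, the first or the third at 10% CO2 with LPS, after the GC correction and without the filter (adjusted p 0.0598 to 0.142).

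None of the tRNA processing genes was called for LPS, and ELAC2 was the lowest, at −0.14 and −0.21. POLG, MGME1, TFB2M, TEFM, MTERF4, FASTKD2, FASTKD5, GRSF1, ELAC2, TRMT10C, HSD17B10, PRORP and NRF1, 13 members (36.1%), were called in no comparison, beside 52.6% of all genes tested. Of these, 8 were called under at least 1 alternative setting, and TEFM, MTERF4, FASTKD5, ELAC2 and PRORP under none. MTERF4 shares 51.0% of its exon bases with SNED1 on the opposite strand.

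**Figure D4:**
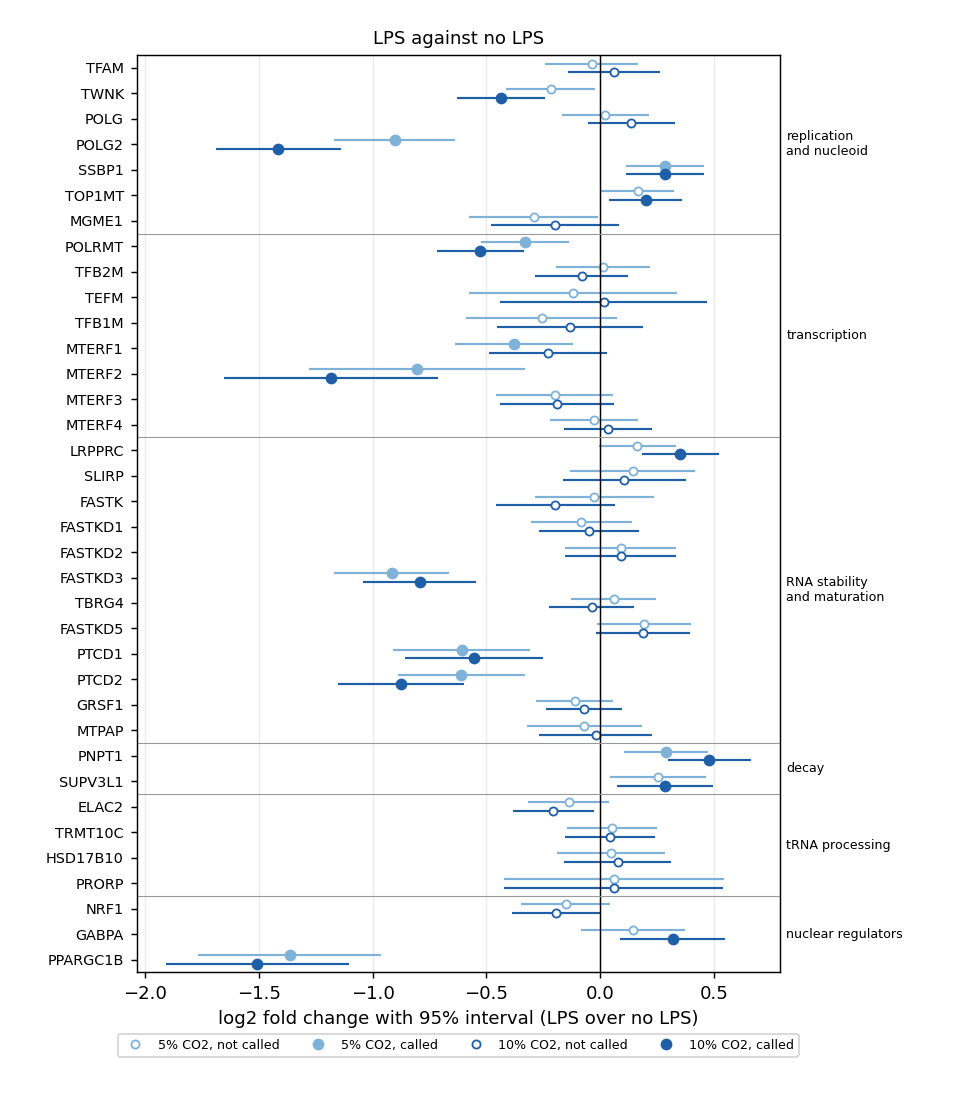
Log2 fold change of LPS over no LPS with 95% intervals for the 36 genes, at 5% CO2 (light blue) and 10% CO2 (dark blue); filled points are called. PPARGC1B, POLG2, MTERF2, FASTKD3, PTCD1 and PTCD2 lie left of 0 and PNPT1, SSBP1 and LRPPRC right of it.

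The interaction asked whether the LPS effect differed between the CO2 levels. No member was called in edgeR's quasi-likelihood test or in DESeq2, beside 0.0244% of all genes called higher and 0% lower by edgeR. At the looser mark of an unadjusted p under 0.05 in edgeR, 1 of 36 members passed, POLG2. The share of all genes at that mark is not given here. The interaction of POLG2 was −0.51 ± 0.18 (SE; adjusted p = 0.680), which was not called. For PNPT1 the interaction was 0.19, with an interval of −0.07 to 0.45, and for PPARGC1B −0.14, with an interval of −0.71 to 0.43. SSBP1 and PNPT1 were called higher with LPS and higher for averaged CO2, and POLRMT lower with LPS and higher for averaged CO2, in comparisons that share their libraries.

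**Figure D5:**
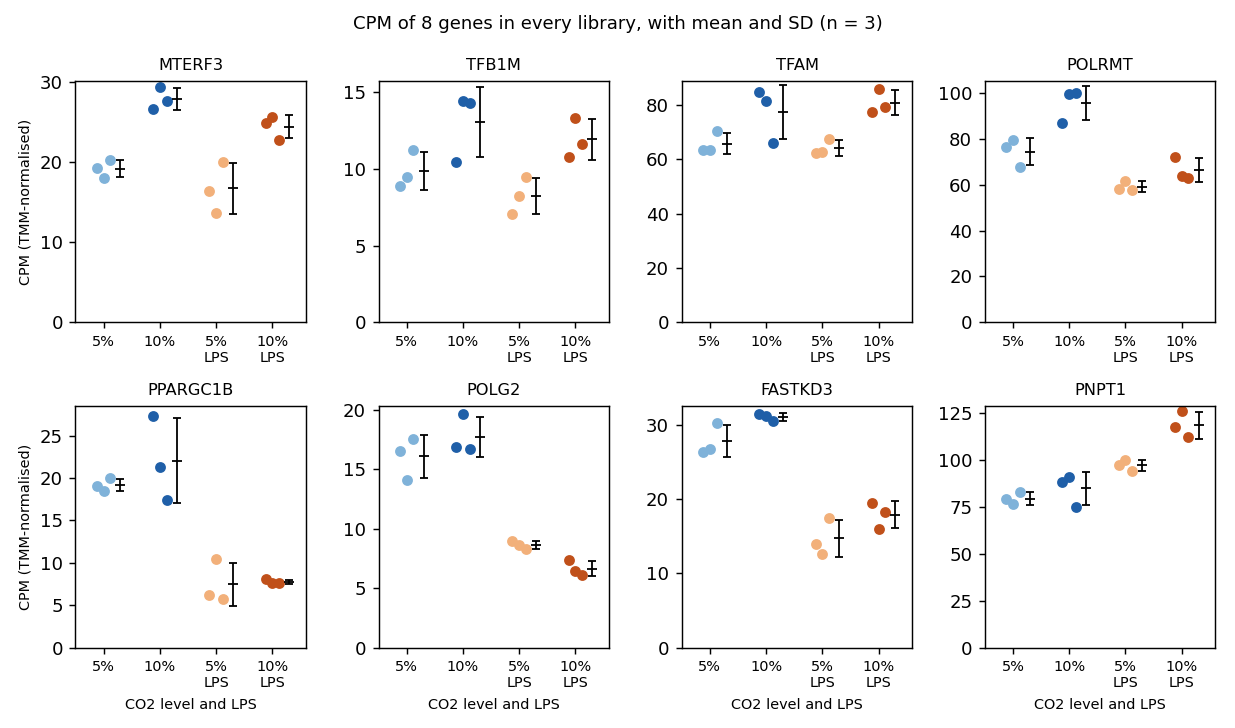
CPM (TMM-normalised, axes from 0) of 8 genes in each library by group, with the group mean and SD (n = 3) to the right of the points. MTERF3 is higher in every library at 10% CO2 at both LPS states, and the LPS libraries of PPARGC1B, POLG2 and FASTKD3 lie below all others.

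A further 50 nuclear genes of mitochondrial nucleic acid metabolism, 49 of them tested, gave the wider setting. For averaged CO2 12 of the 49 were called higher and 3 of the 49 lower, beside 8.06% and 8.69% of all genes tested. The 3 with the smallest p were MRM1, an rRNA methyltransferase, at 0.74, REXO2, an oligoribonuclease, at 0.46, and METTL15, a second rRNA methyltransferase, at 0.45 on the log2 scale. Without LPS 1 was called, GTPBP3, a tRNA modification enzyme, at 0.46, beside 0.799% of all genes called higher and 0.665% lower. With LPS 4 were higher, among them REXO2 (0.58) and MRM1 (0.74), and 1 lower, the mitochondrial thymidine kinase TK2 (−0.36). The shares of all genes there were 4.29% higher and 4.46% lower. For LPS 3 were higher and 5 lower at 5% CO2, beside 11.8% and 13.1% of all genes. At 10% CO2 5 were higher and 10 lower, beside 16.6% and 18.6% of all genes. SLC25A33, a mitochondrial pyrimidine nucleotide carrier, rose by 0.66 and 0.78 at the 2 levels, while MRM2 fell by 0.43 and 0.51. GABPB1, the partner subunit of GABPA, rose by 0.40 at 5% CO2, and TK2 fell by 0.65 at 10% CO2. None was called for the interaction.

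The 13 messages that mitochondrial DNA itself encodes had a median averaged CO2 difference of 0.87 on the log2 scale, against 0.17 for the 36 members. A share of all counts was taken over every gene of the mitochondrial chromosome, not only these 13. It was 1.57% ± 0.340 at 5% CO2, 2.66% ± 0.563 at 10% CO2, 1.55% ± 0.249 at 5% CO2 with LPS and 3.11% ± 0.9498 at 10% CO2 with LPS (SD, n = 3). None of the 13 was called for CO2 without LPS by edgeR's quasi-likelihood test, where 7 had an unadjusted p under 0.05 and the median was 0.68 on the log2 scale, and DESeq2 called 4 higher. With LPS 6 were called higher, and the 3 with the smallest p were MT-ND5 (1.06), MT-ND4L (1.30) and MT-ND6 (1.03), while averaged over LPS 9 were called higher, where DESeq2 called 10 and 12. For LPS 0 were called at 5% CO2 by either tool, with 1 at an unadjusted p under 0.05, and 1, MT-ND3 at 0.34, was called at 10% CO2, where DESeq2 called 2. Of all genes tested, edgeR called 0.799% higher for CO2 without LPS, 4.29% with LPS and 8.06% averaged. For LPS it called 11.8% higher at 5% CO2 and 16.6% at 10% CO2. The libraries were selected for poly(A), and the share of mitochondrial chromosome genes was highest in the second library at 10% CO2 with LPS, at 4.15%. How far this share bears on the members' values was not tested.

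PNPT1 was called in 4 comparisons, the most of any member, and the genes whose log2 CPM followed it most closely over the 12 libraries were PSMA6 (Pearson r = 0.983), DDX60L (0.978), EIF1AX (0.976), TCP1 (0.972) and TIMM23 (0.969). These were the top 5 of all genes tested, the libraries include the same LPS and CO2 contrasts for all of them, and the values are a description. Among the monocyte markers CSF1R was lower for averaged CO2 (−0.49) and FCGR1A higher (0.25), and with LPS CD33 was lower and FCGR1A higher at both CO2 levels. The part of these marker shifts in the members' values was not tested.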

How the data were processed

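Poly(A)-selected, paired-end RNA sequencing of 12 THP-1 libraries was deposited by the authors as raw read counts per Ensembl gene. Per the submitters' processing notes the tools were Trimmomatic 0.36, STAR 2.5.2b and featureCounts (Subread 1.5.2) on GRCh38; the strand setting, the handling of multimapping reads and the annotation version were not given in the sources used here. Symbols were matched for 98.1% of 57500 gene rows (99.5% of counts). Members and lists were chosen with earlier results of these data known. Named genes are the members called in any comparison, the highest and lowest of each role, the genes of the other lists with the smallest p (up to 3 per comparison), and the 5 genes most like the member called most often.

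Counts were fitted in edgeR 4.0.16 (R 4.3.3): filterByExpr, TMM, 1 quasi-likelihood model of 4 group means over 12 libraries, robust dispersion, and Benjamini-Hochberg adjustment over 16402 genes. The common biological coefficient of variation was 10.7%. RPKM used the exon length in the tables. A floor of 3 counts equalled 0.135 to 0.175 CPM. Libraries of a group all differed from each other beyond counting noise (chi-square over its degrees of freedom, 8.91 to 29.2). The script was tested on simulated data. Same-numbered libraries deviated together in all 3 pairs for LPS at 10% CO2 (r 0.251, 0.192 and 0.106). For LPS at 5% CO2 the 3 values were also above 0 (0.192, 0.0249 and 0.115). Different-numbered libraries reached 0.0612 for LPS at 5% CO2 and 0.0270 for LPS at 10% CO2. For CO2 they reached 0.211 without LPS and 0.181 with LPS. The numbers, which come from the titles, may pair samples, but the labels do not say so. Same numbers did not stand apart in every comparison. The block changed no member's call for LPS at 10% CO2. Alternatives were DESeq2 1.42.0, its normalization within edgeR, no filter, a GC correction, a replicate block, the compared groups alone, and leaving out each library.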

Additional observations from a re-analysis of the deposited data

How the results depend on the processing

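No fold change among the 40 called member comparisons changed sign in any alternative. For CO2 without LPS, where 1 member was called, the count was 4 without the filter on low counts, 3 with DESeq2, 6 with the GC correction, and 0 to 4 when 1 library was left out. For CO2 with LPS, where 4 were called, it was 2 without the filter, 7 with the GC correction, and 0 to 5 when 1 library was left out. For averaged CO2, where 11 were called, leaving out 1 library gave 7 to 12. For LPS leaving out 1 library gave 7 to 11 at 5% CO2, where 10 were called, and 11 to 14 at 10% CO2, where 14 were called; the GC correction gave 13 and 16. POLG2, FASTKD3, PTCD1, PTCD2 and PPARGC1B were called for LPS at both CO2 levels in all 19 alternatives. The interaction gave 0 in every alternative. The replicate block gave 3 for CO2 without LPS, 5 with LPS and 15 averaged, and 10 and 14 for LPS at 5% and 10% CO2; with the GC correction added it gave 8, 11, 16, 15 and 21. With both, GABPA was called lower for averaged CO2 (−0.14, adjusted p 0.0220) and POLG2 lower for CO2 with LPS (−0.46, adjusted p 0.0190). The labels do not say whether same-numbered libraries share more than a number in any comparison. Their correlations were 0.259, 0.0946 and −0.136 for CO2 without LPS and 0.122, −0.132 and −0.0294 with LPS. For LPS at 5% CO2 they were 0.192, 0.0249 and 0.115, all above 0. The share of all genes called in the same setting is not given beside these counts. These counts alone therefore do not say whether a change was particular to the members. The cause of these changes in count was not tested. With 3 libraries a group, and a spread between libraries beyond counting noise, a value that missed the threshold does not show that levels were equal.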
